A study of Homo sapiens with 8 samples.

Results

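A group of 8 lipid genes was followed in NCI-H295R cells. This established human line, from a carcinoma of the adrenal cortex, makes adrenal steroids and serves as a model of that tissue. The genes are HMGCS1 and MVD (mevalonate steps), FDPS (isoprenoid step), LSS and MSMO1 (sterol ring steps), SCD and ACSBG1 (fatty acid desaturation and activation) and ABCG1 (sterol efflux). They were chosen by gene symbol from the 187 genes of the deposited count table, with earlier results of these data known. That all 8 are in it was thus fixed in advance. The study sequenced polyadenylated RNA from 4 serum-deprived libraries and 4 control libraries. Serum-deprived cells were kept in DMEM-F12 with L-glutamine, HEPES and antibiotics but without the NU-I serum and the ITS supplement (insulin, transferrin and selenium). Control cells had the same base medium with both. All libraries came from the same line with no further treatment, and the sources used here give no duration of deprivation.

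Cholesterol is built from acetyl-CoA through mevalonate, isoprenoid diphosphates and squalene, and the ring closed by lanosterol synthase is then trimmed to cholesterol. When sterols run low in the endoplasmic reticulum, the transcription factor SREBP is released from its membrane and raises the genes of this route and several fatty acid genes. Oxysterols made when sterols are plentiful activate the receptor LXR, which raises sterol exporters such as ABCG1. The adrenal cortex draws on cholesterol as the precursor of all its steroids, taking it from lipoproteins or making it.

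The promoters of the 5 sterol genes and of SCD are shown because these had the highest levels per kilobase of the genes that rose in serum-deprived cells. ACSBG1, which also rose, had the lowest level and is not shown. The stretches run from 230 to 26 bases before the annotated RefSeq start of each gene (GRCh38.p14). They are written on the gene's strand, with each CCAAT in either orientation in capitals. In all of them the RefSeq start lies inside the gene limits given further below, so each stretch runs partly within those limits. The FDPS stretch, for instance, ends at 155308840, while the limits of FDPS begin at 155308748. The CCAAT nearest the RefSeq start also lies within the gene limits for HMGCS1, FDPS and MSMO1, but not for MVD, LSS and SCD.
HMGCS1: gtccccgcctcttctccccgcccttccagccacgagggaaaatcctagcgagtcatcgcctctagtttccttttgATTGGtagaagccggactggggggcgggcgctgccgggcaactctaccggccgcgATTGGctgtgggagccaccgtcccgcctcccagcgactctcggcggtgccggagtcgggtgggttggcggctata
MVD: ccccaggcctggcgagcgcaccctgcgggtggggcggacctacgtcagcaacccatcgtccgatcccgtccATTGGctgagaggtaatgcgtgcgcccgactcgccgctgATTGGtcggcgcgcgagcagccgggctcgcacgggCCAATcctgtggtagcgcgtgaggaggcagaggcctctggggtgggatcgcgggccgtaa
FDPS: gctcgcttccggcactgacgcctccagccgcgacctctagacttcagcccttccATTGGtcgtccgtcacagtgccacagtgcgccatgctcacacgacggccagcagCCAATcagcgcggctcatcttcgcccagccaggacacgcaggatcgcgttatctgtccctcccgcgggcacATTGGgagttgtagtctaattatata
LSS: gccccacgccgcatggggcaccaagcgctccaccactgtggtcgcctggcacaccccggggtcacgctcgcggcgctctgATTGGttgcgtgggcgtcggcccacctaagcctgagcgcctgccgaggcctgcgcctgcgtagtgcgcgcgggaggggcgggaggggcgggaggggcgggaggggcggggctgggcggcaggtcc
MSMO1: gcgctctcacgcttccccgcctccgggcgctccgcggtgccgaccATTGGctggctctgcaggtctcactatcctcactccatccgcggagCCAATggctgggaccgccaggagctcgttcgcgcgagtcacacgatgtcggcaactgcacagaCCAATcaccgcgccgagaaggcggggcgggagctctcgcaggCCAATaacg
SCD: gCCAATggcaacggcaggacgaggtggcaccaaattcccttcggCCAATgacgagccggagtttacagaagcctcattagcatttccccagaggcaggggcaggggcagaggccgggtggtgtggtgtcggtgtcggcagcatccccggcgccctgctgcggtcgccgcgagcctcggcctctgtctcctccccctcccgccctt
The HMGCS1 stretch is chr5:43313438-43313642 on the minus strand, MVD is chr16:88663117-88663321 on the minus strand and FDPS is chr1:155308636-155308840 on the plus strand. LSS is chr21:46228800-46229004 on the minus strand, MSMO1 is chr4:165327439-165327643 on the plus strand and SCD is chr10:100347003-100347207 on the plus strand.

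The CCAAT box is the binding motif of NF-Y, a factor known to act beside SREBP at sterol genes. A CCAAT (both strands) was found in the 300-base windows of 7 of the 7 genes that had a window, against 34.6% of all 35116 windows. It was in 7 of the 8 windows of these genes, since HMGCS1 has 2 annotated starts and the second window held none. The ACSBG1 window (78234516 to 78234815 on chromosome 15) lies wholly, and not only in part, inside the gene's limits. The same is true of the second HMGCS1 window. At least 2 copies lay in the windows of 5 genes, against 10.8% of all windows: MSMO1 had 4, MVD and FDPS 3 each, HMGCS1 and SCD 2 each, and LSS and ACSBG1 1 each. The GC box GGGCGG was found for 6 of the 7 genes, all but ACSBG1, against 45% of all windows, with 7 copies in the LSS window. The E-box CACGTG, which reads the same on both strands, was found only for LSS, against 7.26% of windows. The exact sterol regulatory element core TCACNCCAC was found in none of the 8 windows (1.13% of all windows), and neither were 2 copies of AGGTCA with 4 bases between them (0.0199%). A match is a match of letters in this window and not a measured binding site. ABCG1 has no window in the table.

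**Figure D1:**
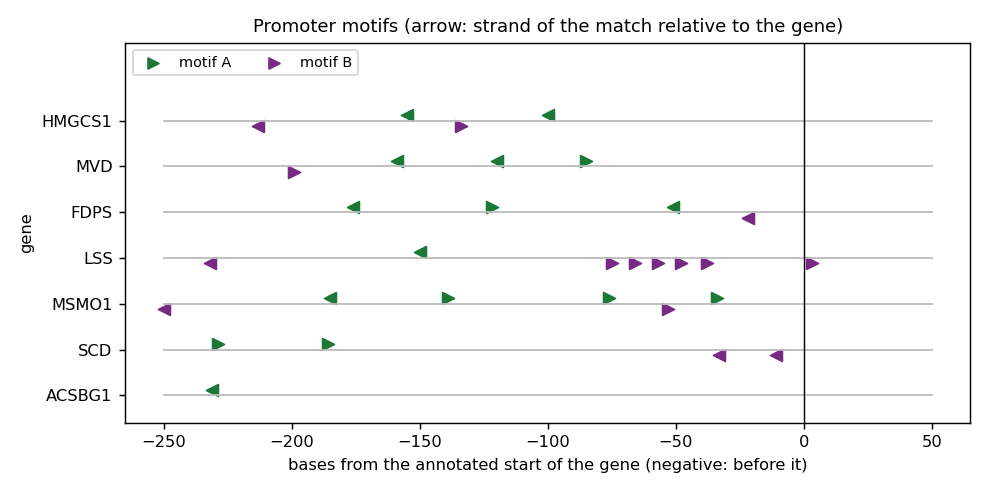
Matches of motif A (CCAAT box, green) and motif B (GC box, purple) in the promoter windows of 7 lipid genes (the first window for HMGCS1), by bases from the annotated start; arrows give the strand relative to the gene. The CCAAT boxes lie between 231 and 34 bases before the RefSeq start, with 4 in MSMO1 and 1 in LSS and ACSBG1. For ACSBG1 the whole window lies inside the gene's limits.

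The deposited table held only genes that the authors had selected on these samples. The limits in its name are 0.1 for the FDR (an adjusted p-value) and 1.5 for the fold change. The direction of a gene in it, the size of its change and its passing a test are thus not independent evidence. Genes outside it were not analysed here. Estimated counts of the 187 genes gave column sums from 262373 to 359195, only a part of each library, so the sequencing depth is unknown. The adrenocortical markers DLK1, MRAP and INHA and the steroid enzyme gene HSD3B2 were in the table with counts in every library. None of 18 markers of fibroblasts, endothelium, leukocytes and chromaffin cells was tabulated. Since only genes selected as changed were tabulated, that absence does not say whether those markers were expressed. Replicate 1 stood apart in both groups. Serum-deprived replicate 1 had Spearman correlations across genes of 0.919 to 0.927 with the other serum-deprived libraries, against 0.969 to 0.979 among those. Control replicate 1 had 0.9475 to 0.9499 with the other controls, against 0.977 to 0.987 among those. In bulk RNA, fewer cells with a transcript and less of it per cell cannot be told apart. Nothing in the labels says that replicates were separate cultures, and p-values measure only the spread between these libraries. Values below are estimated counts divided by a size factor per library (scaled counts), unless another scale is named.

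In serum-deprived cells 7 of the 8 genes rose and ABCG1 fell (edgeR's quasi-likelihood test, with p-values adjusted by Benjamini-Hochberg over the 187 tabulated genes and a threshold of 0.05). Of all tabulated genes, 36.9% were called higher and 48.1% lower by the same rule. The adjustment covers only genes already selected as changed, so the adjusted p-values given here do not bound the share of false calls. The median log2 fold change of the 7 genes that rose was 0.63, against 0.67 for all tabulated genes called higher, and that of ABCG1 was -0.73 against a median of -0.83 for all called lower. The authors' limit of 1.5-fold kept smaller changes out of the table, so these sizes are partly set by that limit. Serum-deprived and control values were fully separate for 6 of the 8 genes, a property of 66.3% of the tabulated genes, and the exceptions were MSMO1 and ACSBG1. On the deposited counts without scaling, the groups did not overlap for 3 of the 8 genes (MVD, LSS and ABCG1), against 51.9% of the tabulated genes.

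**Figure D2:**
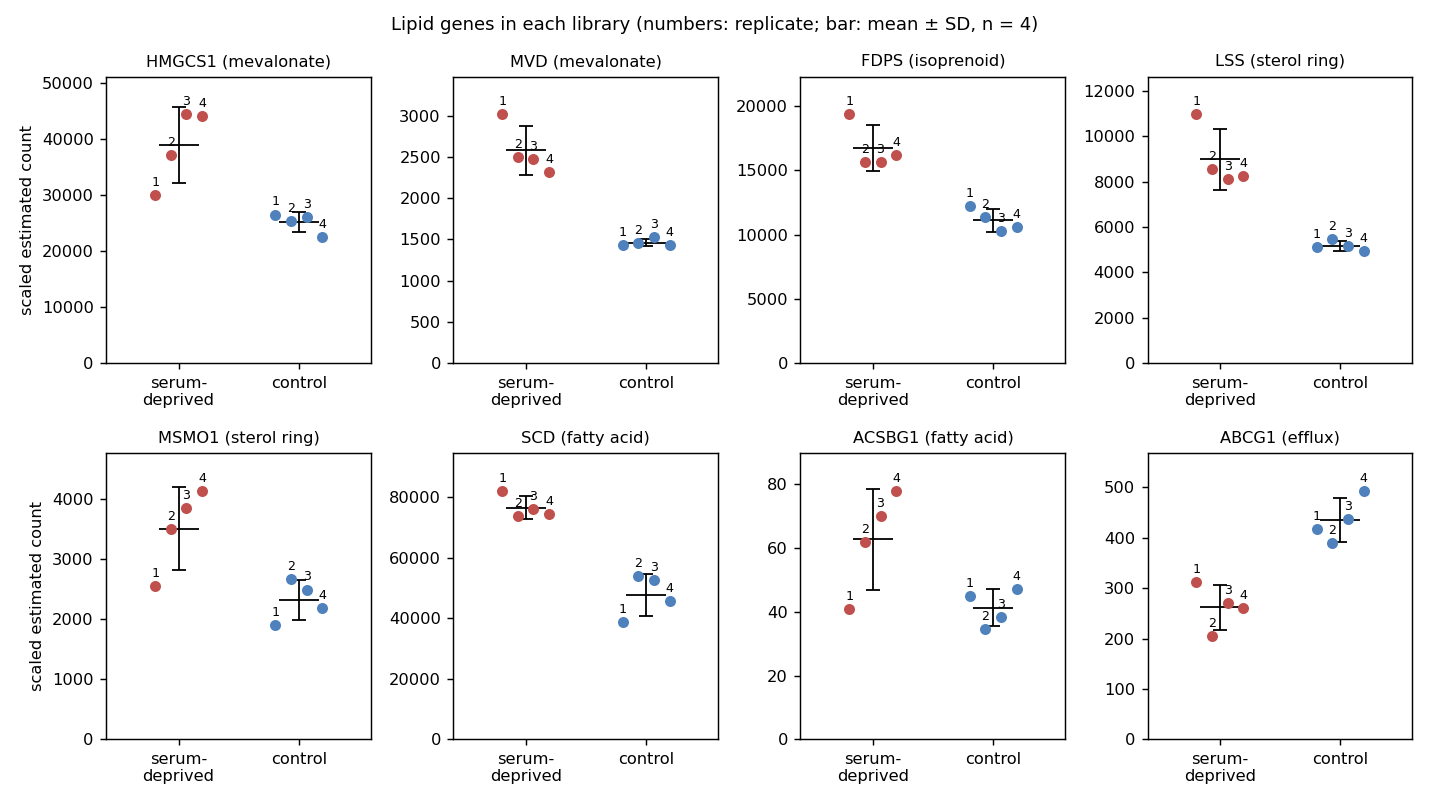
Scaled estimated counts of the 8 lipid genes in each serum-deprived (left, red) and control (right, blue) library, from 0; numbers are replicates and bars the mean ± SD (n = 4). Only MSMO1 and ACSBG1 have serum-deprived values that reach into the control range, in both through replicate 1.

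HMGCS1 makes HMG-CoA from acetyl-CoA and acetoacetyl-CoA, the step before the one that statins block. The gene (ENSG00000112972) lies on chromosome 5 from 43289395 to 43313512, minus strand (GRCh38). It had 30037, 37270, 44457 and 44096 scaled counts in serum-deprived replicates 1 to 4, against 26560, 25354, 26091 and 22595 in control replicates 1 to 4. Every serum-deprived library was above every control library, with serum-deprived replicate 1 the nearest to them. The log2 fold change was 0.63 ± 0.13 (SE, n = 4 per group; edgeR adjusted p = 0.00216).

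MVD removes carbon dioxide from mevalonate diphosphate to give isopentenyl diphosphate, the unit from which isoprenoids are built. The gene (ENSG00000167508) lies on chromosome 16 from 88651935 to 88663161, minus strand. Its scaled counts were 3016, 2501, 2480 and 2320 in serum-deprived replicates 1 to 4 and 1434, 1455, 1528 and 1428 in control replicates 1 to 4. The controls lay within a narrow band (SD 45.8 around a mean of 1461) and serum-deprived replicate 1 was the highest of all. Its log2 fold change, 0.82 ± 0.12 (SE; edgeR adjusted p = 0.000517), was the largest of the 8 genes, although it did not differ from that of LSS beyond their errors.

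FDPS joins isoprene units into farnesyl diphosphate, from which the routes to cholesterol and to protein prenylation part. The gene (ENSG00000160752, chromosome 1 from 155308748 to 155320666, plus strand) had 19350, 15644, 15625 and 16215 scaled counts in serum-deprived replicates 1 to 4, against 12227, 11389, 10271 and 10564 in control replicates 1 to 4. Serum-deprived replicates 2 to 4 lay close together and replicate 1 stood above them. On the log2 scale FDPS rose by 0.59 ± 0.11 (SE; edgeR adjusted p = 0.00117).

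LSS closes squalene epoxide into lanosterol, the first sterol of the route. The gene (ENSG00000160285, chromosome 21 from 46188141 to 46228824, minus strand) had 10961, 8574, 8125 and 8244 scaled counts in serum-deprived replicates 1 to 4 and 5117, 5448, 5141 and 4941 in control replicates 1 to 4. As with FDPS, serum-deprived replicate 1 was the highest and the other serum-deprived libraries agreed closely. LSS rose by 0.80 ± 0.12 on the log2 scale (SE; edgeR adjusted p = 0.000534).

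MSMO1 is the methylsterol monooxygenase that starts the removal of methyl groups from the sterol ring. The gene (ENSG00000052802, chromosome 4 from 165327623 to 165343160, plus strand) had 2546, 3495, 3845 and 4137 scaled counts in serum-deprived replicates 1 to 4, against 1907, 2667, 2494 and 2192 in control replicates 1 to 4. The groups overlapped, because serum-deprived replicate 1 lay below control replicate 2. Replicate 1 was the lowest library of each group. For MSMO1 the log2 fold change was 0.60 ± 0.17 (SE; edgeR adjusted p = 0.00847).

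SCD is the stearoyl-CoA desaturase, which puts the double bond into oleate and palmitoleate and is a target of SREBP and of LXR. The gene (ENSG00000099194, chromosome 10 from 100347124 to 100364834, plus strand) had 82063, 73686, 75993 and 74314 scaled counts in serum-deprived replicates 1 to 4 and 38778, 53876, 52576 and 45613 in control replicates 1 to 4. The coefficient of variation was 5% in serum-deprived cells and 14.6% in controls, and the groups did not overlap. SCD rose by 0.68 ± 0.11 on the log2 scale (SE; edgeR adjusted p = 0.000666).

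ACSBG1, a bubblegum-type acyl-CoA synthetase that activates long and very long fatty acids, was the least abundant of the 8. The gene (ENSG00000103740, chromosome 15 from 78167468 to 78245688, minus strand) had 41, 61.7, 69.99 and 77.9 scaled counts in serum-deprived replicates 1 to 4, against 45.0, 34.6, 38.3 and 47.0 in control replicates 1 to 4. The groups overlapped, since serum-deprived replicate 1 lay among the controls. The log2 fold change was 0.61 ± 0.23 (SE) with an edgeR adjusted p of 0.0288, the weakest call of the 8. It was lost in edgeR without serum-deprived replicate 2, 3 or 4 or control replicate 2 or 3 (adjusted p 0.0514 to 0.0868), when libraries were scaled by column totals (adjusted p = 0.0622) and when they were not scaled (adjusted p = 0.150). In the 17 alternatives that gave a value, its adjusted p ran from 0.00225 to 0.150.

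ABCG1 is a transporter that moves cholesterol out of cells and away from the endoplasmic reticulum. The gene (ENSG00000160179, chromosome 21 from 42199689 to 42297244, plus strand) had 313, 204, 269.7 and 261 scaled counts in serum-deprived replicates 1 to 4, against 416.5, 390.3, 437 and 493 in control replicates 1 to 4. All serum-deprived libraries were below all controls, and serum-deprived replicate 1 was the nearest to them. Its log2 fold change was -0.73 ± 0.16 (SE; edgeR adjusted p = 0.0031), a level 1.66-fold lower in serum-deprived cells.

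**Figure D3:**
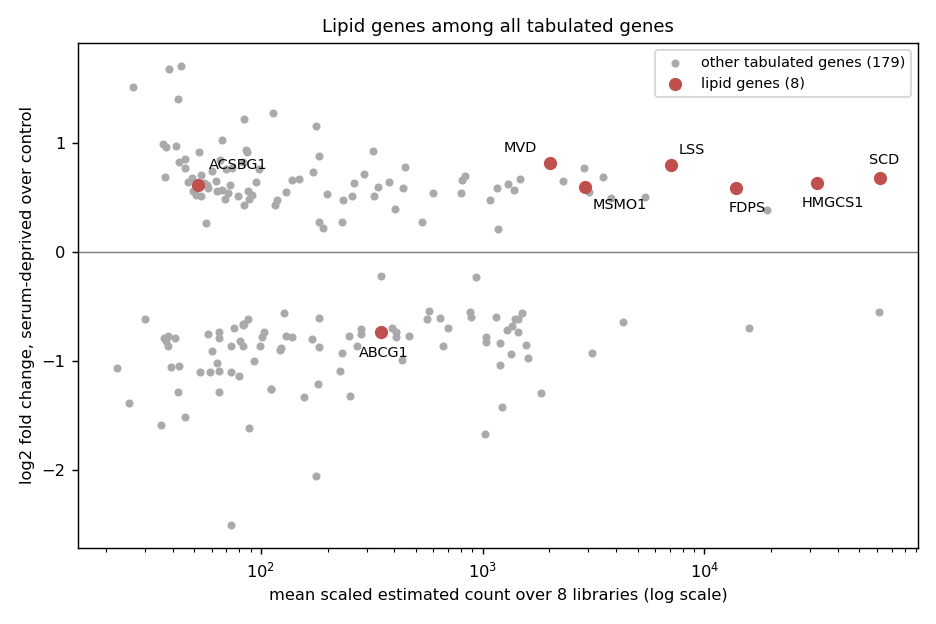
Log2 fold change (serum-deprived over control, edgeR) against the mean scaled estimated count over 8 libraries on a log axis, for the 8 lipid genes (red) and the other tabulated genes (grey). The 7 genes that rose lie between 0.59 and 0.82 across the whole range of counts, and ABCG1 lies at -0.73. The authors' fold limit kept genes with smaller changes out of the table.

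Because the table holds only selected genes, the relative scale of the 2 groups was itself an estimate. Without any scaling the log2 fold changes of all tabulated genes moved by a median of -0.20, and 21 genes were called higher and 91 lower, against 69 and 90 with it. With median-of-ratios size factors 79 were higher and 75 lower, and in DESeq2 82 and 77. None of the 8 lipid genes changed direction under these or any other alternative tried. Without scaling, 4 of the 8 passed in edgeR (MVD, LSS, SCD and ABCG1), while HMGCS1, FDPS, MSMO1 and ACSBG1 had adjusted p-values of 0.0656, 0.05004, 0.135 and 0.150.

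Expressed per kilobase of the principal annotated transcript (GENCODE 29), the level of SCD was the highest of the 8 genes and that of ACSBG1 the lowest. SCD had 14270 ± 713 scaled counts per kilobase in serum-deprived cells and 8898 ± 1300 in controls (SD, n = 4 each). FDPS followed with 11305 ± 1206 per kilobase in serum-deprived cells and 7519 ± 596 in controls, and HMGCS1 with 11114 ± 1942 in serum-deprived cells and 7173 ± 506 in controls. FDPS and HMGCS1 did not differ beyond their spread in either group, and the ranges of SCD and FDPS overlapped in controls but not in serum-deprived cells. LSS, MSMO1 and MVD formed a lower tier at 1818 ± 271, 1545 ± 305 and 1415 ± 166 per kilobase in serum-deprived cells and 1046 ± 42.7, 1020 ± 148 and 801.5 ± 25.2 in controls. Within that tier the ranges of LSS and MSMO1 overlapped in both groups, and those of MSMO1 and MVD overlapped in serum-deprived cells. ABCG1 stood at 87.4 ± 14.9 per kilobase in serum-deprived cells and 144.8 ± 14.5 in controls, and ACSBG1 at 9.86 ± 2.499 in serum-deprived cells and 6.49 ± 0.911 in controls. The order of the means was the same in both groups. These levels depend on the transcript length assumed, since the isoforms behind each count are not known.

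In the numbered pairs (replicate n of serum-deprived over replicate n of control), 7 of the 8 genes had the same direction in all 4, as did 81.8% of the tabulated genes. The exception was ACSBG1, with log2 ratios of -0.13, 0.83, 0.86 and 0.72 in pairs 1 to 4. FDPS was the steadiest, with 0.66, 0.46, 0.60 and 0.62. HMGCS1 had 0.18, 0.56, 0.77 and 0.96, and MSMO1 0.42, 0.39, 0.62 and 0.92, so both were lower in pairs 1 and 2 than in pairs 3 and 4. MVD had 1.07, 0.78, 0.70 and 0.70, LSS 1.10, 0.65, 0.66 and 0.74, and SCD 1.08, 0.45, 0.53 and 0.70. For these genes, and for FDPS, pair 1 gave the largest ratio. ABCG1 had -0.41, -0.93, -0.70 and -0.91, with the smallest fall in pair 1.

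**Figure D4:**
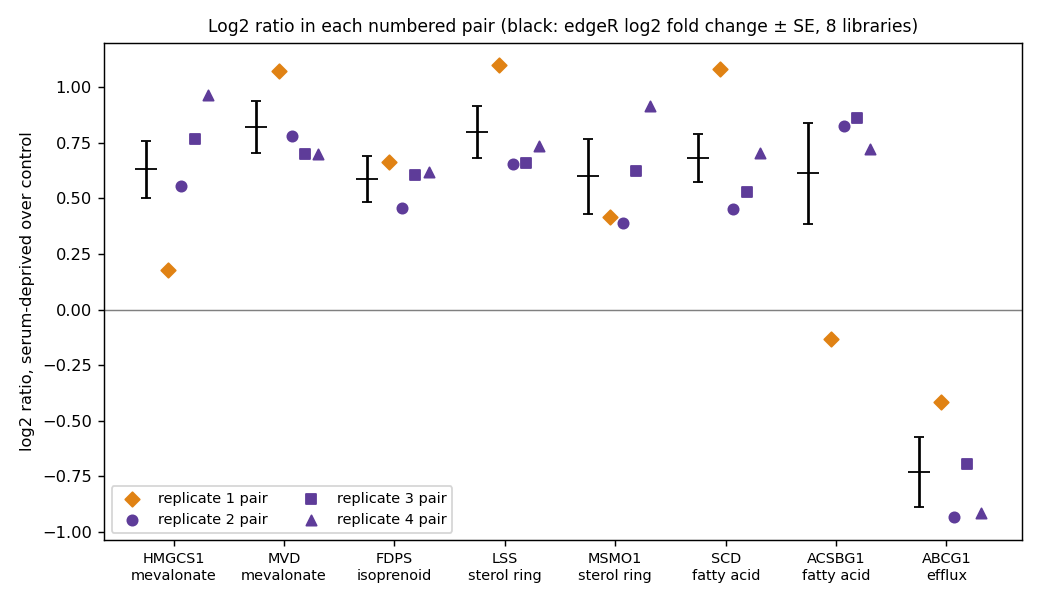
Log2 ratio of scaled counts (serum-deprived over control) in the replicate 1 pair (orange) and the replicate 2 to 4 pairs (purple), with the edgeR log2 fold change ± SE (black). The replicate 1 pair is the highest for MVD, LSS, FDPS, SCD and ABCG1 (its smallest fall). It is the lowest for HMGCS1 and ACSBG1, where ACSBG1 is at -0.13.

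The authors' deposited table gives log2 fold changes of 0.81 for HMGCS1, 0.77 for MVD, 0.60 for FDPS, 0.73 for LSS, 0.69 for MSMO1, 0.60 for SCD, 0.86 for ACSBG1 and -0.80 for ABCG1. Its FDR values run from 1.33e-09 for HMGCS1 to 0.00344 for ACSBG1. For all 8 genes but FDPS, the authors' fold changes were nearer to the mean log2 ratio of pairs 2 to 4 than to the 8-library values. That mean was 0.80 for ACSBG1 and 0.76 for HMGCS1. For MVD the 2 were almost equally near (0.73 and 0.82). Across all tabulated genes, the authors' fold changes differed from the ratios of replicates 2 to 4 by a constant with an SD of 0.00827. FDPS and MVD are among these genes, so the FDPS exception and the MVD near tie come from the scale used here. In the replicate 1 pair 7 of the 8 genes moved in the authors' direction, as did 82.4% of the tabulated genes. Without scaling, HMGCS1 and ACSBG1 were both lower in serum-deprived replicate 1 than in its control (log2 ratios of -0.05 and -0.36). Without both replicate 1 libraries all 8 genes passed in edgeR, with log2 fold changes of 0.76 for HMGCS1, 0.73 for MVD, 0.56 for FDPS, 0.68 for LSS, 0.64 for MSMO1, 0.56 for SCD, 0.82 for ACSBG1 and -0.84 for ABCG1. All 187 tabulated genes passed there, 93 higher and 94 lower, and these are the libraries that the authors' fold changes follow, so this says nothing particular of the 8 genes.

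Within their groups the sterol genes did not vary as a single block. In serum-deprived replicate 1, MVD, LSS and FDPS stood above the mean of their group, by 0.23, 0.30 and 0.22 on the log2 scale, and ABCG1 and SCD by 0.27 and 0.10. In the same library HMGCS1, MSMO1 and ACSBG1 stood at -0.36, -0.44 and -0.57 relative to theirs. Steps of the same route, such as HMGCS1 and MVD, thus lay on opposite sides in this library. In control replicate 1, SCD and MSMO1 were low, at -0.29 and -0.27, while FDPS and ACSBG1 were high, at 0.14 each.

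**Figure D5:**
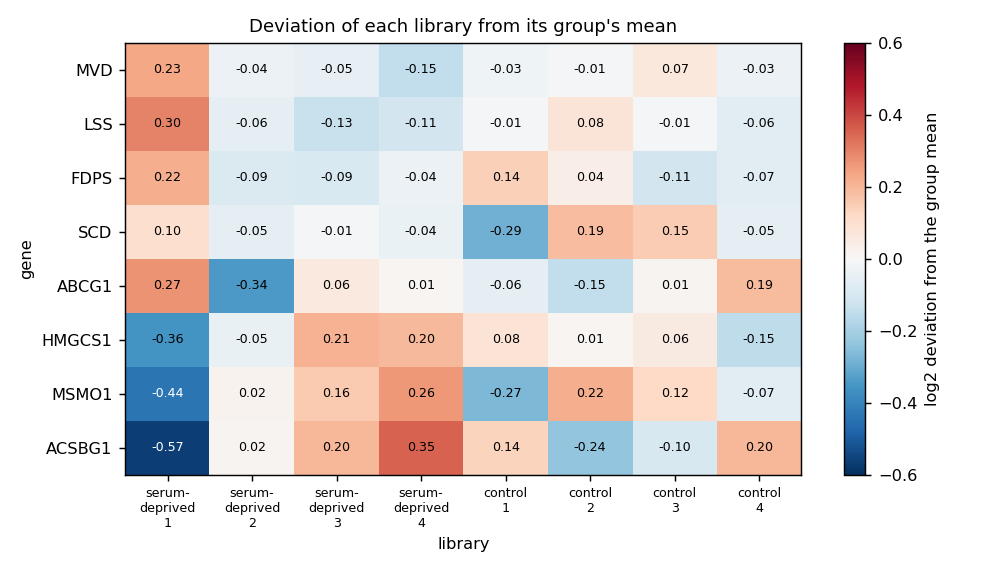
Log2 deviation of each serum-deprived (left) and control (right) library from its group's mean, per gene; red is above and blue below the mean. Serum-deprived replicate 1 is red for MVD, LSS, FDPS, SCD and ABCG1 and blue for HMGCS1, MSMO1 and ACSBG1.

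Ratios of 2 genes within a library do not depend on the scale between libraries, and all 28 pairs of the 8 genes were compared. The groups did not overlap in 8 pairs (28 tested), against 42.9% of all pairs of tabulated genes. Of these, 7 were the pairs with ABCG1, which moved against all the others. These pairs set genes selected as higher against a gene selected as lower on the same samples. Their difference was thus built in by the selection and is not independent evidence. The 42.9% covers pairs with the same and with opposite directions together, so it is not a like comparison for them. The log2 ratio of HMGCS1 to ABCG1 was 7.21 ± 0.42 in serum-deprived and 5.86 ± 0.23 in control libraries (SD, n = 4 each). That of SCD to ABCG1 was 8.20 ± 0.20 in serum-deprived and 6.77 ± 0.29 in control libraries. That of ACSBG1 to ABCG1 was -2.08 ± 0.57 in serum-deprived and -3.39 ± 0.14 in control libraries. The differences from control for the 7 pairs were between 1.31 and 1.55. In each, the exact permutation test (two-sided) gave p = 0.0286, the smallest that 4 against 4 libraries allow, and p = 0.1 after Benjamini-Hochberg adjustment over the 28 pairs. No pair passed 0.05 after that adjustment. This test exchanges libraries freely, and with the numbers taken as pairs the smallest two-sided exact p that 4 pairs allow is 0.125, so no ratio could pass.

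Among the 21 pairs without ABCG1, the ratio of FDPS to LSS was the only one without overlap. Its log2 value was 0.90 ± 0.07 in serum-deprived and 1.10 ± 0.11 in control libraries, a difference of -0.20 (exact permutation p = 0.0286, adjusted p = 0.1). That adjustment ran over all 28 pairs. The 7 pairs with ABCG1, separate through the selection, made this adjusted p smaller than the 21 pairs alone would give. The share of separate ratios among other genes that both rose was not computed, so this ratio is a description only. The ratio of FDPS to LSS was lower in serum-deprived cells in all 4 numbered pairs, by 0.44 in pair 1 and by 0.06 to 0.20 in the others, so pair 1 made up much of the difference. For MVD to LSS the log2 ratio was -1.80 ± 0.07 in serum-deprived and -1.82 ± 0.07 in control libraries, a difference of 0.03 (exact permutation p = 0.571, adjusted p = 1). The log2 ratio of HMGCS1 to MVD was 3.91 ± 0.42 in serum-deprived and 4.10 ± 0.09 in control libraries, a difference of -0.20 within a spread of 0.42 among serum-deprived libraries (exact permutation p = 0.514, adjusted p = 1). That comparison ran from -0.90 in pair 1 to 0.27 in pair 4.

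The 3 sterol synthesis lists together hold 23 genes, of which the 5 above were tabulated. They were 2 of 8 at the mevalonate steps, 1 of 4 at the isoprenoid and squalene steps and 2 of 11 at the ring steps. All 5 rose, against 36.9% of all tabulated genes called higher, but they are the genes chosen to be followed here. Of 25 genes of fatty acid synthesis, desaturation, elongation and activation, SCD, ACSBG1 and ACSL6 were tabulated and rose. ACSL6, an acyl-CoA synthetase of the long-chain family, had 526 ± 41.7 scaled counts in serum-deprived cells and 351 ± 23.8 in controls (log2 fold change 0.58 ± 0.12, SE; edgeR adjusted p = 0.00276). None of 16 genes of cholesterol uptake, esterification and SREBP control was tabulated, and ABCG1 was the 1 tabulated gene of 11 for efflux and LXR targets. On the steroid synthesis list, HSD3B2 was the 1 tabulated gene of 16 and fell (log2 fold change -1.42 ± 0.37, SE; edgeR adjusted p = 0.00621). The adrenocortical markers MRAP, INHA and DLK1 (3 of 7 listed) fell by 1.09, 0.77 and 0.55 on the log2 scale with edgeR adjusted p-values of 0.00276, 0.00101 and 0.000534.

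The tabulated genes whose deviations from their group means were most like the mean deviation of the 5 sterol genes over 8 libraries were IL7R (Pearson r = 0.79), ACSL6 (0.77) and SCNN1G (0.70). IL7R and SCNN1G fell (log2 fold changes of -2.501 and -1.28), so the likeness concerns the spread within groups and not the response. That mean deviation ran only from -0.08 to 0.07, since the sterol genes deviated in opposite directions in serum-deprived replicate 1. These values are a description over libraries that share a scale.

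None of the 8 genes had whole counts in all libraries (tolerance 0.01), as was true of 118 of the 187 tabulated genes, which happens when kallisto divides reads between genes. In GENCODE 29, the shares of 31-base words that a gene's transcripts have in common with those of any other gene were 33.6% for ACSBG1, 23.3% for FDPS, 16.3% for HMGCS1 and 13.1% for SCD. They were 7.26% for MSMO1, 7.25% for LSS, 2.91% for ABCG1 and 2.75% for MVD. For LSS the partner with the most was the antisense gene AP001468.1 (5.92%). The largest partner of ACSBG1 was IDH3A, which overlaps it on the other strand and held 30.9% of its words. For FDPS it was the antisense gene RUSC1-AS1 (14.3%), with several FDPS pseudogenes behind it, and for HMGCS1 the antisense gene AC114947.2 (13.7%). For SCD it was AC126365.1 (6.85%), followed by the pseudogene SCDP1. The kit marks strand, but the sources used here do not say whether the counting used it. Reads of ACSBG1, FDPS, HMGCS1 and SCD may have been split with these partners, so their values are uncertain to that extent, which was not tested.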

How the data were processed

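Messenger RNA libraries (stranded, polyA-selected, single reads) were made from 4 serum-deprived and 4 control samples of NCI-H295R cells (per the labels' protocols). For 187 genes the authors deposited an estimated count per library, not scaled to depth, and, per the file headers, their log2 fold change and FDR (an adjusted p-value). The table's name carries 3 limits, 30 for the mean count, 0.1 for the FDR and 1.5 for the fold change. The tools cutadapt, FastQC, kallisto and edgeR and the build GRCh38 are named, per the submitters' processing notes, with versions and the transcript set not given in the sources used here. There were 0 columns of other samples. Columns were matched to samples by group and replicate number.

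Size factors were, within each group, the median ratio of a library's counts to the genes' geometric means (pseudocount 0.5). Between groups, the widest empty interval of log2 ratios with at least 20 genes on each side (-0.43 to 0.00, left by the authors' fold limit) was centred on 0, a shift of -0.21. Factors ran from 0.843 to 1.21. Rounded counts were tested over all 187 genes with glmQLFit and glmQLFTest of edgeR 4.0.16 in R 4.3.3 (8 libraries, no covariate, two-sided, Benjamini-Hochberg, threshold 0.05), and standard errors came from the F statistic. The step was tested on simulated data. Within-library ratios (pseudocount 0.5) were compared by exact permutation in Python 3.11.15. Alternatives were other scalings, DESeq2 1.42.0, limma-voom (limma 3.58.1), a mean count of at least 100, a replicate block and the omission of libraries. Same-numbered libraries deviated together (their deviations correlated at 0.216, 0.377, 0.111 and 0.122 across genes, replicate 1 first). The numbers were therefore taken to pair them in the numbered pairs and the replicate block. The main edgeR fit and the permutation test did not use this pairing. The genes and lists were chosen with earlier results of these data known. All 8 genes, every tabulated gene of the lists and the 3 genes most like the sterol genes were named. No libraries were duplicates (chi-square per degree of freedom of at least 4.27).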

Additional observations from a re-analysis of the deposited data

Results flagged for a closer look

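For each of the 8 lipid genes in each group (16 groups of 4 libraries), the gap between the most extreme library and its neighbour was set against the group's whole range. Of these, 2 passed Dixon's limit for 4 samples, which chance alone passes in about 1 group of 20. FDPS in serum-deprived cells had a gap of 0.842 of its range, from 19350 scaled counts in replicate 1, with 15625 to 16215 in the other libraries. LSS in serum-deprived cells likewise had a gap of 0.842, from 10961 in replicate 1, with 8125 to 8574 in the others. Without serum-deprived replicate 1, which also stood apart across the table, the log2 fold changes were 0.51 for FDPS (edgeR adjusted p = 0.001002) and 0.69 for LSS (edgeR adjusted p = 0.000302). They were 0.56 and 0.68 without both replicate 1 libraries, and 0.59 and 0.80 with all 8 libraries.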

How the results depend on the processing

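Each lipid gene kept its direction in all 17 or 18 alternatives that gave it a value, and 133 of 143 such values kept their side of the threshold. The other 10 lost the call. They were 7 of ACSBG1 and, without scaling, HMGCS1, FDPS and MSMO1, as the report gives, so that 4 of the 8 genes passed without scaling. Fold changes ran from 0.44 to 0.77 for HMGCS1, 0.62 to 0.97 for MVD, 0.38 to 0.74 for FDPS, 0.59 to 0.96 for LSS, 0.39 to 0.74 for MSMO1, 0.47 to 0.84 for SCD, 0.44 to 0.82 for ACSBG1 and -0.93 to -0.57 for ABCG1 on the log2 scale. With a mean count of at least 100, 91 of 107 tabulated genes passed, against 159 of 187, since fewer genes were tested, and ACSBG1 had too low a count to be among them. With the numbers as a replicate block all 8 lipid genes passed, as did 162 tabulated genes, and no call among the 8 changed. Within-library ratios did not overlap in 8 to 10 of the 28 pairs of genes in every alternative, the 10 counted under the replicate block being pairs with the same sign in all 4 numbered pairs. Depth is unknown. ACSBG1 had the lowest counts of the 8 genes, a replicate 1 pair against the others and the most words in common with another gene, and these limits were not ranked.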
